A study of Homo sapiens with 4 samples.

Results

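Long noncoding RNAs that are often studied in cancer were followed as a set of 10 named genes: MALAT1, NEAT1, HOTAIR, PVT1, MEG3, CASC15, NORAD, KCNQ1OT1, TUG1 and CCAT1. The rule takes them by name and uses no measured value, though the set was chosen with earlier results of these data known. Of the 10 symbols, 9 matched a row among the 43714 gene rows of the count table, and CCAT1 matched none and was not analysed here. The 9 genes lie on 7 chromosomes, so most of them share neither a locus nor reads.

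Both groups were sublines of MDA-MB-231, a human triple-negative breast cancer line of mesenchymal character, and both carried the stably transfected 7TGP reporter, in which 7 TCF sites drive EGFP. Both were selected with puromycin at 3 ug/mL, with at least 5 passages of selection, and kept in DMEM with 10% fetal bovine serum. After 8 rounds of sorting and expansion, the reporter-positive line (MDA-MB-2317TGP-POS), called EGFP-positive here, was more than 80% EGFP-positive and the reporter-negative line (MDA-MB-2317TGP-NEG), called EGFP-negative here, more than 95% EGFP-negative, so each group was a sorted population and not purely of 1 state. The treatment labels call the EGFP-negative line control and only the EGFP-positive line 7TGP vector transfected, though both line names hold 7TGP. RNA was sequenced in 2 libraries per line, and the question was how the line with an active Wnt reporter differs from the line without it. Each reporter state is 1 line, so reporter activity cannot be told apart from whatever else sets these sublines apart, and fewer expressing cells cannot be told apart from less RNA per cell. Whether a line's 2 libraries stem from separate cultures is not stated in the labels. The p-values therefore rest on the spread among these libraries alone, and that spread may be technical.

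Long noncoding RNAs act as RNA, without being translated into protein. MALAT1 and NEAT1 stay in the nucleus, where MALAT1 gathers in nuclear speckles with splicing factors and the long form of NEAT1 is the scaffold of paraspeckles. NORAD is mostly cytoplasmic and binds the Pumilio proteins, which repress messenger RNAs. HOTAIR, MEG3, KCNQ1OT1 and TUG1 have been linked to chromatin repression, PVT1 and CCAT1 lie on either side of the MYC gene, and CASC15 is transcribed beside SOX4.

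Counts totalled 55894092 to 63034563 per library. The 4 genes taken as typical of MDA-MB-231 (VIM, CD44, AXL, MSN) were present. Their summed level was 4188 to 4260 CPM (counts scaled to a common library size) in the EGFP-negative and 2893 to 3136 CPM in the EGFP-positive line. The gap lies in VIM, which fell (2712 and 2623 against 1256 and 1342 CPM). By contrast, CD44 (239 and 281 CPM in the EGFP-negative and EGFP-positive line) and MSN (520 and 641 CPM) rose. AXL (798 and 794 CPM) did not pass. Adjusted p was 1.91e-07 for VIM, 0.0373 for CD44, 0.0142 for MSN and 0.974 for AXL (edgeR with Benjamini-Hochberg). Summed over 8 luminal and epithelial genes, the level was 277 to 374 CPM, most of it from the keratin gene KRT8 (274 and 210 CPM in the EGFP-negative and EGFP-positive line) and ERBB2 (81.0 and 64.0 CPM), which both fell, while FOXA1 rose from a low level (0.0876 and 0.749 CPM; adjusted p = 8.88e-04, 0.00108 and 1.17e-04, edgeR with Benjamini-Hochberg). ESR1, the oestrogen receptor gene, was at 4.97 and 5.78 CPM and CDH1, the E-cadherin gene, at 0.587 and 0.747 CPM. Summed over 5 leukocyte genes, the level was 8.78 to 10.3 CPM, and over 4 fibroblast genes 3.19 to 5.14 CPM. Endothelial genes, 3 in number, summed to 60.3 to 89.9 CPM, almost all of it PECAM1. None of these marker genes with a row was at 0 in every library.

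The counts behaved as made over whole gene spans, introns included and on both strands. For 3575 pairs in which a gene with at least 100 counts lies wholly within a gene of the opposite strand, counts of the outer gene were never below those of the inner one in any library (3575 of 3575). Reads of a gene and of the genes that overlap it can therefore not be told apart, and the overlapping genes are named below where they held at least 10% of the counts.

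Between the lines, NORAD fell to 79.0% of its EGFP-negative level and CASC15 rose 1.32-fold. The other 6 members that could be tested (MALAT1, NEAT1, PVT1, MEG3, KCNQ1OT1 and TUG1) did not pass the threshold, and HOTAIR was too low to test. MALAT1 and NEAT1 had the largest differences, both with lower values in each EGFP-positive library, but between the EGFP-positive libraries they also had the largest fold spread of the members above 10 CPM. Thus 1 of 8 tested members rose and 1 fell (edgeR's quasi-likelihood test, Benjamini-Hochberg adjusted p under 0.05 over all genes). Over all 30952 genes tested, 22.4% were called, 11.6% higher and 10.9% lower, and over the 8125 long noncoding RNA genes among them 16.4% were called, 9.1% higher and 7.35% lower. The members' 2 calls of 8 lie near these shares, and the count by itself is no result about them.

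The members differed widely in level. Per kb of gene span, which is the length over which reads were counted, MALAT1 was at 131 to 308 CPM per kb in the 4 libraries. NORAD followed at 52.4 to 70.7, NEAT1 at 15.6 to 41.5 and TUG1 at 8.89 to 9.41 CPM per kb. The ranges of these 4 genes did not overlap. PVT1 (0.160 to 0.219 CPM per kb) and KCNQ1OT1 (0.152 to 0.191) overlapped each other, and CASC15 was lower at 0.00890 to 0.0144. MEG3 (0.00193 to 0.00618) and HOTAIR (0.00124 to 0.0116) overlapped at the bottom of the order. With the same whole-span CPM divided by exon length, PVT1 stood at 8.96 to 12.2 and CASC15 at 0.471 to 0.760 CPM per kb, since most of their spans is intron. PVT1 then overlapped TUG1, but these values include intron reads and are not exon levels. By CPM, MALAT1 ranked 7 and NEAT1 13 among the 8125 long noncoding RNA genes tested, NORAD 21, TUG1 135, PVT1 248, KCNQ1OT1 971, CASC15 1548 and MEG3 6590.

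**Figure D1:**
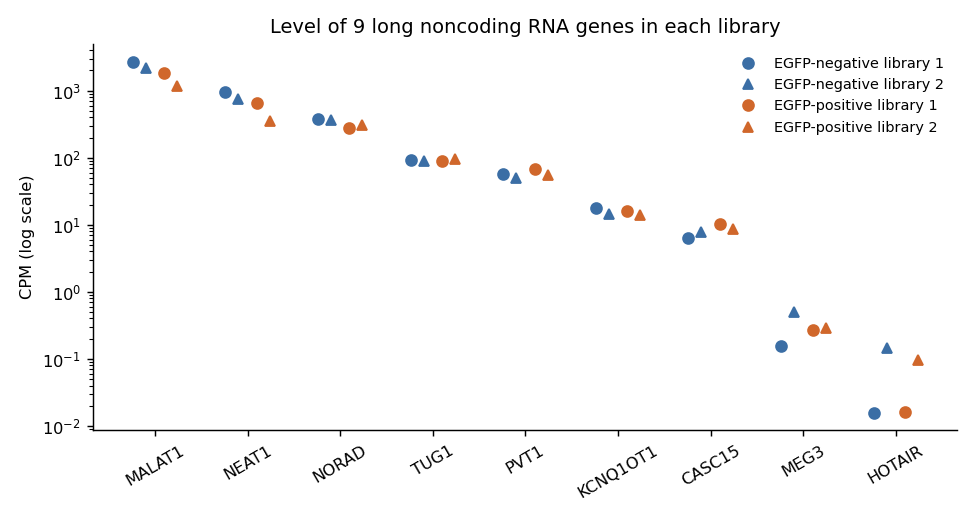
Level of each of the 9 genes in each library, in CPM on a log axis; blue marks are the EGFP-negative and orange marks the EGFP-positive libraries, circles library 1 and triangles library 2. MALAT1 and NEAT1 are lower in both EGFP-positive libraries and differ between them, while the marks for TUG1 lie on top of each other at 90.3 to 95.5 CPM.

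The nuclear body RNAs come first. MALAT1 (ENSG00000251562, chromosome 11, 65497688 to 65506516 on GRCh38, forward strand, a span that its exons cover wholly) drew 172861 and 132926 reads in the EGFP-negative and 114643 and 60653 in the EGFP-positive libraries. Scaled, its level was 2720 and 2162 CPM against 1824 and 1157 CPM. Both EGFP-positive libraries lay below both EGFP-negative ones, but the EGFP-positive libraries lay farther from each other than the nearest libraries of opposite lines did. The mean went from 2441 ± 394 to 1490 ± 472 CPM (SD, n = 2), a log2 fold change of -0.71 (standard error 0.24) with an unadjusted 95% interval of -1.32 to -0.10 (adjusted p = 0.106, edgeR with Benjamini-Hochberg).

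NEAT1 (ENSG00000245532, chromosome 11, 65422774 to 65445540, forward strand), which lies beside MALAT1, had the same order of libraries. Its level was 945 and 748 CPM in the EGFP-negative and 657 and 356 CPM in the EGFP-positive libraries. The log2 fold change was -0.74 (standard error 0.45), and the 95% interval ran from -2.46 to 0.98 (adjusted p = 0.437, edgeR with Benjamini-Hochberg). NEAT1 counts were 34.7% and 34.6% of MALAT1 counts in the EGFP-negative and 36.0% and 30.8% in the EGFP-positive libraries, so their ratio moved less than their levels.

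The spread of this pair within a line was large beside that of other genes. Between the EGFP-positive libraries, MALAT1 differed 1.58-fold and NEAT1 1.84-fold, and of 12819 genes with a mean of at least 10 CPM only 32 and 14 differed more. Between the EGFP-negative libraries, they differed 1.26-fold each, and 92 and 86 of these genes differed more. For both RNAs the first library was the higher in either line. NORAD and TUG1 showed no such spread, with 3770 and 7544 genes that differed more between the EGFP-positive libraries. PVT1 and KCNQ1OT1 lay in between. For them 678 and 2027 genes differed more between the EGFP-positive libraries, and 484 and 283 between the EGFP-negative ones. Without the second EGFP-positive library, the log2 fold change was -0.43 for MALAT1 and -0.37 for NEAT1, and without the first -1.07 and -1.25. Each of these values passed the threshold (adjusted p = 9.88e-10 and 5.78e-08 without the second library, and 2.07e-58 and 3.70e-78 without the first, edgeR with Benjamini-Hochberg), but a fit without a library has only 1 residual degree of freedom among libraries, and these were not taken as calls. RNA quality of the libraries is not given in the sources used here, and its part in this spread was not tested.

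Genes counted inside MALAT1 and NEAT1 serve as short windows along the RNAs. Inside MALAT1, a conserved 95-base segment that GENCODE names RF01871 and that starts 5226 bases after the start of the gene had 139 and 102 CPM against 87.1 and 57.4 CPM. At the 3′ end lies RF01684, the tRNA-like small RNA (mascRNA) that is cut from the end of the MALAT1 transcript, and it is printed here as a processed product of MALAT1 that has a row of its own. Its 57 bases, at chr11:65506117-65506173 on GRCh38, forward strand, read from GENCODE release 29, are as follows, with no part in capitals.
RF01684: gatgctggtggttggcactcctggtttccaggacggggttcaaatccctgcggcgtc
This row held 11 and 1 counts in the EGFP-negative and 13 and 5 in the EGFP-positive libraries (adjusted p = 0.616, edgeR with Benjamini-Hochberg), too few to compare with the whole of MALAT1.

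NEAT1 is made as a short and a long form that share their 5′ end, and only the long form builds paraspeckles. Segments named RF01955, RF01956 and RF01957 lie in the shared part, starting 499, 864 and 1186 bases after the start, and MIR612 lies 21684 bases after it, in the long form alone. The shared segments together had 9293 and 8052 counts in the EGFP-negative and 6413 and 3390 in the EGFP-positive libraries. MIR612 had 569 and 378 against 417 and 194 counts, which is 6.12% and 4.69% of the shared segments in the EGFP-negative and 6.50% and 5.72% in the EGFP-positive libraries. The percentages of the lines overlap, and a shift between the ends of NEAT1 was not detectable at this depth. The shared segments were lower in both EGFP-positive libraries than in either EGFP-negative one, whereas for MIR612 the lines overlapped (8.95 and 6.15 against 6.63 and 3.70 CPM). None of the 4 windows passed the threshold (adjusted p = 0.297, 0.147, 0.249 and 0.416 in the order given, edgeR with Benjamini-Hochberg).

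**Figure D2:**
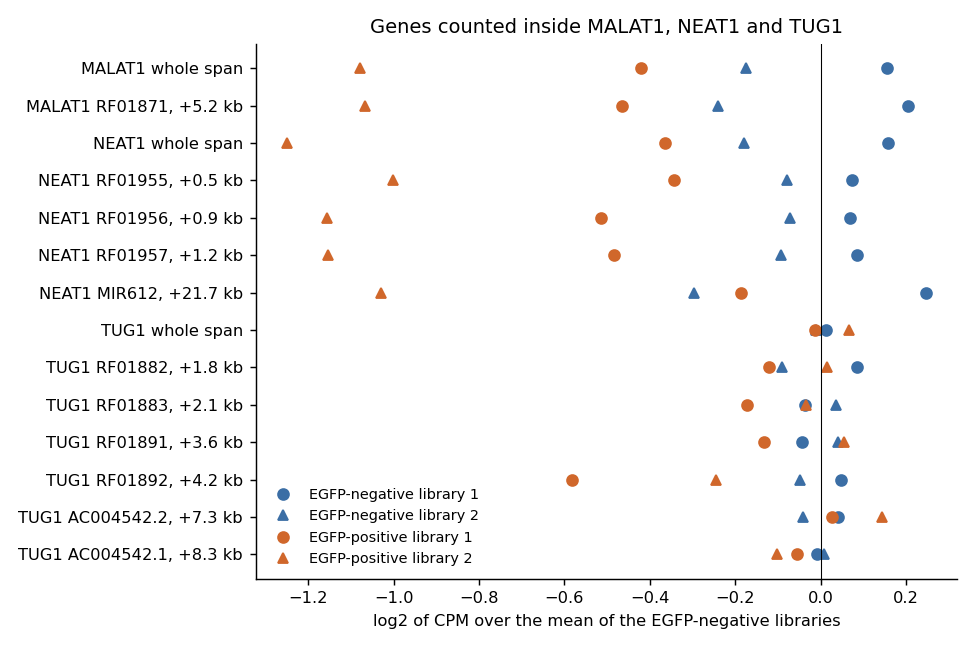
Level in each library of MALAT1, NEAT1 and TUG1 and of the genes counted inside them at over 1 CPM on average, as log2 of CPM over the mean of the 2 EGFP-negative libraries; labels give the distance from the start of the outer gene. The second EGFP-positive library is lowest for MALAT1, NEAT1 and each of their windows, though for MIR612 the lines overlap, and among the TUG1 windows RF01892 lies lowest relative to its EGFP-negative mean (3.21 and 4.06 CPM in the EGFP-positive libraries).

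Of 15 genes for paraspeckle and nuclear speckle proteins, all tested, 1 rose, 2 fell and 12 did not pass, beside 22.4% called among all genes, with a median log2 fold change of -0.019 beside -0.0046 for all genes. NONO, a core paraspeckle protein that binds NEAT1, rose from 144 ± 6.97 to 205 ± 6.98 CPM (SD, n = 2; adjusted p = 3.05e-05, edgeR with Benjamini-Hochberg). Its partners SFPQ (214 and 211 CPM) and PSPC1 (39.5 and 42.4 CPM in the EGFP-negative and EGFP-positive line) did not pass (adjusted p = 0.878 and 0.383, edgeR with Benjamini-Hochberg). Those that fell were SRRM2, a scaffold of nuclear speckles that overlaps ELOB, from 314 ± 29.2 to 251 ± 30.8 CPM, and NUDT21, a cleavage factor subunit that overlaps OGFOD1, from 90.8 ± 2.25 to 77.5 ± 6.25 CPM (SD, n = 2; adjusted p = 0.0144 and 0.0328, edgeR with Benjamini-Hochberg).

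NORAD, the cytoplasmic member, fell. NORAD (ENSG00000260032, chromosome 20, 36045622 to 36050960 on GRCh38, reverse strand) is a single exon of 5339 bases that no other gene overlaps. It had 23976 and 22711 counts in the EGFP-negative and 17572 and 16289 in the EGFP-positive libraries, or 377 and 369 CPM against 280 and 311 CPM. The groups did not overlap, and the gap between them was larger than the spread within either. The log2 fold change was -0.34 (standard error 0.080), with a 95% interval of -0.51 to -0.17 (adjusted p = 0.00351, edgeR with Benjamini-Hochberg). Without the first or the second EGFP-negative library it was -0.32 and -0.36 and no longer passed (adjusted p = 0.173 and 0.102, edgeR with Benjamini-Hochberg).

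NORAD holds Pumilio proteins through many copies of a short element, spelled TGTANATA in DNA letters. On its strand of the GENCODE transcript, 15 copies were found between bases 761 and 4606, of which 10 read TGTATATA, 4 TGTAAATA and 1 TGTACATA. That is 2.81 elements per kb. Among 1106 long noncoding RNA genes whose longest transcript has 3000 to 8000 bases, the median was 0 copies and 3 genes, NORAD included, had at least as many as NORAD. In the longest transcripts of the other members, HOTAIR had 3, NEAT1 6, KCNQ1OT1 9 in 91667 bases, TUG1 2, CASC15 and MEG3 1 each and MALAT1 0. PVT1 was not searched. A match describes letters only and is no measurement of binding. Examples of 24 bases each are shown to let the repeated setting of the element be seen, with the element in capitals, 5′ to 3′, all on the reverse strand of chromosome 20 (GRCh38): the second at chr20:36049806-36049829, the eleventh at chr20:36047974-36047997, the third at chr20:36049705-36049728, the sixth at chr20:36049121-36049144 and the fifth at chr20:36049495-36049518.
NORAD element 2: cactactgTGTATATAgttgacaa
NORAD element 11: ccctactgTGTATATAgcggacaa
NORAD element 3: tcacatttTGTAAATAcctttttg
NORAD element 6: taccacttTGTAAATAtctttttg
NORAD element 5: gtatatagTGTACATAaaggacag
Elements 2 and 11 share 21 of 24 bases and elements 3 and 6 share 20 of 24, flanks included.

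PUM2, a gene for a Pumilio protein, stood at 134 ± 4.18 and 144 ± 9.48 CPM in the EGFP-negative and EGFP-positive line and did not pass (SD, n = 2; adjusted p = 0.364, edgeR with Benjamini-Hochberg).

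Genes around NORAD were lower as well. Within 1 Mb on either side, 48 other genes were tested and 27 fell, with a median log2 fold change of -0.29 beside -0.34 for NORAD itself, against 10.9% lower among all genes. Within 5 Mb, 73 of 177 fell and 7 rose, with a median again of -0.29. Among neighbours that fell were CPNE1, a calcium-dependent membrane-binding protein gene, from 231 ± 1.80 to 173 ± 7.56 CPM, and RBM39, a splicing factor gene, from 262 ± 5.48 to 203 ± 12.1 CPM (SD, n = 2; adjusted p = 2.28e-04 and 9.84e-04, edgeR with Benjamini-Hochberg), both named after their values were seen. The nearest tested genes, CNBD2 14.9 kb and ENSG00000234139 21.5 kb away, were low and did not pass (adjusted p = 0.623 and 0.710, edgeR with Benjamini-Hochberg). The count of lower neighbours was 12 without the first and 16 without the second EGFP-negative library, while the median stayed at -0.28 and -0.30. Genes side by side may share reads and are not independent, and DNA copy number was not measured.

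**Figure D3:**
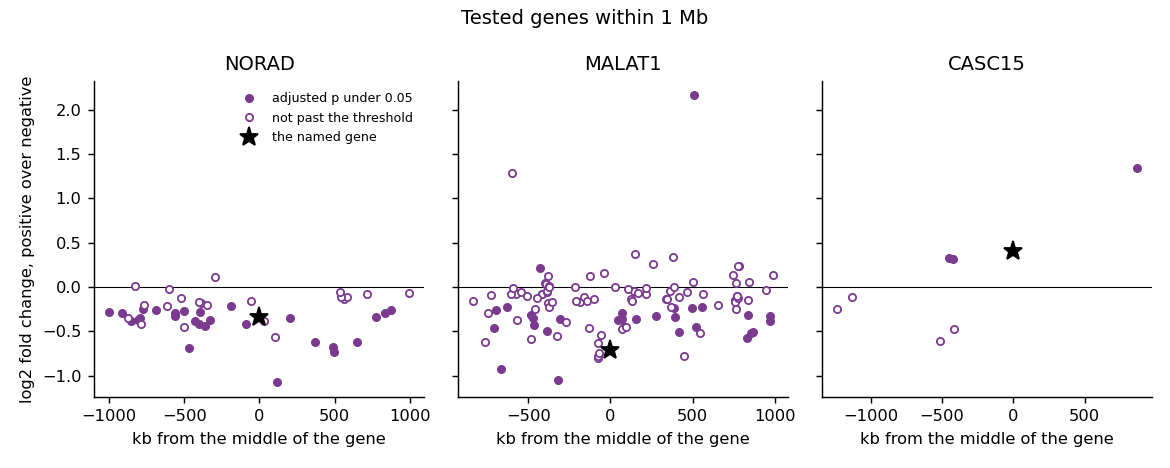
Log2 fold change of each tested gene within 1 Mb of NORAD, MALAT1 and CASC15 against its distance in kb from the middle of the named gene (star); filled circles have an adjusted p under 0.05. Most genes around NORAD lie below 0, near NORAD's own value of -0.34, while MALAT1 lies below most of its neighbours.

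Genes around MALAT1 and NEAT1 were also lower more often than higher. Of 106 tested genes within 1 Mb, with all members and the genes inside them left out, 28 fell and 3 rose, with a median log2 fold change of -0.14, and around NEAT1 the figures were 26 and 3 of 103 and -0.14, beside 10.9% lower and 11.6% higher among all genes. With MALAT1, NEAT1 and the genes inside them counted, 103 neighbours were common to both, 92.8% of those of MALAT1 and 96.3% of those of NEAT1, so these are largely the same genes. These medians are smaller than the differences of MALAT1 and NEAT1 themselves. Close neighbours did not pass: FRMD8, 9.25 kb before NEAT1, was at 35.3 and 32.2 CPM, and the pseudogene FAUP4 between them at 7.10 and 7.91 CPM in the EGFP-negative and EGFP-positive line (adjusted p = 0.267 and 0.404, edgeR with Benjamini-Hochberg).

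CASC15 rose. CASC15 (ENSG00000272168, forward strand of chromosome 6, 21664772 to 22368328 on GRCh38), a gene of 703557 bases studied in melanoma and neuroblastoma, had 398 and 481 counts in the EGFP-negative and 635 and 446 in the EGFP-positive libraries. Scaled, these were 6.26 and 7.82 CPM against 10.1 and 8.51 CPM. The groups did not overlap, but the nearest libraries of the lines were closer to each other than to their own partners. The log2 fold change was 0.41 (standard error 0.13), with a 95% interval of 0.14 to 0.67 (adjusted p = 0.0275, edgeR with Benjamini-Hochberg). The call was lost without the first EGFP-negative library (log2 fold change 0.26, adjusted p = 0.373 by edgeR), without the first EGFP-positive library (0.28, adjusted p = 0.102 by edgeR), with scaling to total counts (0.32, adjusted p = 0.188 by edgeR) and with DESeq2 (0.41, adjusted p = 0.0660).

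Little of this count came from genes inside CASC15. NBAT1, a noncoding gene on the opposite strand that is studied beside CASC15 in neuroblastoma, had 9, 12, 17 and 19 counts in the EGFP-negative and then the EGFP-positive libraries, and did not pass (adjusted p = 0.233, edgeR with Benjamini-Hochberg). The prolactin gene PRL, also inside, had 1 to 4 counts. With the inner genes' counts taken away, CASC15 still passed narrowly (log2 fold change 0.38, adjusted p = 0.0495, edgeR with Benjamini-Hochberg).

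On one side of CASC15 lies SOX4, a transcription factor gene active in development and in breast cancer cells, which rose from 193 ± 3.21 to 241 ± 21.2 CPM (SD, n = 2; log2 fold change 0.32, adjusted p = 0.00498, edgeR with Benjamini-Hochberg). SOX4 overlaps ENSG00000283480, which held 41.0% of its counts and had a log2 fold change of 0.32 as well. Only 7 genes within 1 Mb could be tested, with a median log2 fold change of -0.11, opposite in sign to CASC15. Of these, 3 rose, beside 11.6% among all genes. Besides SOX4 and ENSG00000283480 this was ENSG00000233358, 376 kb beyond CASC15, which went from 2.32 ± 0.213 to 5.88 ± 0.843 CPM (SD, n = 2; adjusted p = 2.54e-06, edgeR with Benjamini-Hochberg). The other neighbour, the pseudogene BOLA2P3, was at 0.207 and 0.151 CPM (adjusted p = 0.633, edgeR with Benjamini-Hochberg).

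Because the lines were sorted by a reporter driven through TCF sites, the start regions of the 2 members that were called are shown, each with 250 bases before and 50 after the annotated start, from RefSeq (GRCh38.p14). Capitals mark CTTTG on either strand, the shared letters of TCF sites. CASC15 lies at chr6:21666163-21666462 on the forward strand and NORAD at chr20:36050911-36051210 on the reverse strand.
CASC15 start region: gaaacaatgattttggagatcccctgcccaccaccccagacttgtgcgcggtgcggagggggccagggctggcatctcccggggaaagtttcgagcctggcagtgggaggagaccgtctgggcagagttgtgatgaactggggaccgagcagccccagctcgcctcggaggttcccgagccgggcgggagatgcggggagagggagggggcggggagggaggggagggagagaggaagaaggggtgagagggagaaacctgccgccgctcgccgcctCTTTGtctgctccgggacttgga
NORAD start region: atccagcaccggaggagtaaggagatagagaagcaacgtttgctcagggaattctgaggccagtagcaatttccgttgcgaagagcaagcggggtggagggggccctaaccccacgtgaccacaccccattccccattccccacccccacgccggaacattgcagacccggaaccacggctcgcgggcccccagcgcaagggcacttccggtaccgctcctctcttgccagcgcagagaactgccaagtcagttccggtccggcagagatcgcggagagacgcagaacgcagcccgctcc
The 5-letter core occurs 1 time in the CASC15 window and does not occur in the NORAD window, beside 47.5% of 35116 such windows that hold it. The fuller forms CTTTGAT and CTTTGAA, searched on both strands, are in 6.86% of all windows and in none of the 8 windows of the 5 members that have one (MALAT1, MEG3, CASC15, NORAD and TUG1). Absence from these windows says nothing about TCF factors elsewhere.

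Among the members linked to chromatin repression, TUG1 had the smallest log2 fold change. TUG1 (ENSG00000253352, chromosome 22, 30969245 to 30979395 on GRCh38, forward strand) was at 91.9 and 90.5 CPM in the EGFP-negative and 90.3 and 95.5 CPM in the EGFP-positive libraries. The lines overlapped, with a log2 fold change of 0.027, a standard error of 0.071 and a 95% interval of -0.12 to 0.18 (adjusted p = 0.855, edgeR with Benjamini-Hochberg), and the value was -0.059 with scaling to total counts. ENSG00000269987, on the opposite strand inside TUG1, held 30.3% of its counts and was at 27.1 and 28.7 CPM in the EGFP-negative and EGFP-positive line (adjusted p = 0.518, edgeR with Benjamini-Hochberg). The segment RF01892 was lower in both EGFP-positive libraries (4.97 and 4.65 against 3.21 and 4.06 CPM) but did not pass (adjusted p = 0.0647, edgeR with Benjamini-Hochberg). MORC2 on one side, 0.947 kb away, was at 17.2 and 16.9 CPM, and SMTN, 84.7 kb on the other side, at 97.0 and 84.8 CPM (adjusted p = 0.927 and 0.0744, edgeR with Benjamini-Hochberg).

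KCNQ1OT1 is the antisense RNA that silences the imprinted genes around it on the paternal chromosome. KCNQ1OT1 (ENSG00000269821, chromosome 11, 2608328 to 2699994 on GRCh38, reverse strand) was at 17.5 and 14.7 CPM in the EGFP-negative and 16.0 and 13.9 CPM in the EGFP-positive libraries. The lines overlapped, and the log2 fold change of -0.10 had a standard error of 0.10 and a 95% interval of -0.32 to 0.11 (adjusted p = 0.542, edgeR with Benjamini-Hochberg). KCNQ1OT1 lies inside KCNQ1, a potassium channel gene of the opposite strand. Its counts made up 91.2% and 85.8% of those of KCNQ1 in the EGFP-negative and 89.6% and 87.6% in the EGFP-positive libraries, so only 108, 150, 117 and 103 counts of KCNQ1 lay outside it. The level of KCNQ1, 18.2 and 16.9 CPM, is thus in the main the level of the stretch it shares with KCNQ1OT1.

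Of 9 listed genes of the imprinted cluster around KCNQ1OT1, 8 were tested, and 1 fell and 7 did not pass, beside 10.9% lower among all genes. KCNQ1, which mostly holds reads of the shared stretch, is among those that did not pass. Of 40 tested genes within 1 Mb that do not overlap KCNQ1OT1, 4 rose and 7 fell, with a median log2 fold change of -0.10. Among all genes, 11.6% were higher. CDKN1C, the cell cycle inhibitor gene that is its nearest tested neighbour at 183 kb, was at 7.09 ± 0.0309 and 5.63 ± 0.0697 CPM (SD, n = 2; log2 fold change -0.33, adjusted p = 0.0595, edgeR with Benjamini-Hochberg). PHLDA2, a growth-restraining imprinted gene, was at 18.5 and 19.1 CPM (adjusted p = 0.822, edgeR with Benjamini-Hochberg). OSBPL5, a lipid transfer protein gene, fell from 22.5 ± 1.82 to 18.8 ± 1.56 CPM (SD, n = 2; adjusted p = 0.0400, edgeR with Benjamini-Hochberg). TRPM5, the nearest gene on the other side, was at 0.673 and 0.522 CPM and did not pass (adjusted p = 0.508, edgeR with Benjamini-Hochberg). The 4 genes within 1 Mb that rose were IGF2, ENSG00000284779, INS-IGF2 and ENSG00000240801, which lie close together. IGF2 went from 0.448 to 1.90 CPM (log2 fold change 2.08, adjusted p = 6.32e-06, edgeR with Benjamini-Hochberg). Of the 7 that fell, PRADX, ENSG00000250644, CTSD, ENSG00000229512 and IFITM10 also lie close together. Such genes may share reads, and their calls are not independent.

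MEG3, the maternally expressed RNA of the DLK1-DIO3 imprinted locus that is often lost in tumours, was close to the limit of detection. MEG3 (ENSG00000214548, forward strand of chromosome 14, 100779410 to 100861031 on GRCh38) had 10 and 31 counts in the EGFP-negative and 17 and 15 in the EGFP-positive libraries. Both EGFP-positive values lay between the EGFP-negative ones, and the 95% interval of the log2 fold change was -1.32 to 0.83 (adjusted p = 0.811, edgeR with Benjamini-Hochberg). MIR493HG and ENSG00000258663 overlap MEG3, with counts equal to 122% and 31.5% of its own. Elsewhere in the locus, MEG8 had 0.523 and 0.437 CPM (adjusted p = 0.739, edgeR with Benjamini-Hochberg), and the protein genes DLK1 and DIO3 were too low to test. ENSG00000258717, the nearest tested gene on the other side of MEG3, went from 0.465 ± 0.101 to 0.103 ± 0.0113 CPM (SD, n = 2; adjusted p = 0.00354, edgeR with Benjamini-Hochberg).

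HOTAIR, the antisense RNA of the HOXC cluster that is known for its link to breast cancer metastasis, was barely detected. HOTAIR (ENSG00000228630, chromosome 12, 53962308 to 53974956 on GRCh38, reverse strand) had 1 and 9 counts in the EGFP-negative and 1 and 5 in the EGFP-positive libraries, and was too low to test. The spread within each line was larger than any difference between them. Its neighbour HOXC11, which overlaps it on the opposite strand, had 0, 2, 0 and 0 counts. Beyond the cluster, CALCOCO1, 235 kb away, fell from 75.6 ± 1.24 to 55.5 ± 3.30 CPM (SD, n = 2; adjusted p = 1.01e-04, edgeR with Benjamini-Hochberg), and ENSG00000273049, 10.9 kb away on the other side, was at 8.47 and 8.40 CPM (adjusted p = 0.964, edgeR with Benjamini-Hochberg).

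Chromatin modifiers and other proteins that bind these RNAs, 14 of 14 tested, held 2 genes that rose and 1 that fell, while 11 did not pass, beside 22.4% called among all genes, with a median log2 fold change of 0.094. EZH2, the enzyme of the PRC2 complex that methylates histone H3, rose from 21.1 ± 0.247 to 29.7 ± 1.98 CPM, and RBBP7, a histone-binding subunit that overlaps TXLNG, from 60.3 ± 3.24 to 69.8 ± 1.60 CPM (SD, n = 2; adjusted p = 9.00e-05 and 0.0415, edgeR with Benjamini-Hochberg). The other core PRC2 genes SUZ12 (45.9 and 49.6 CPM) and EED (19.8 and 21.6 CPM) did not pass (adjusted p = 0.335 and 0.319, edgeR with Benjamini-Hochberg). EHMT2, a histone methyltransferase gene that overlaps EHMT2-AS1, fell from 97.0 ± 0.832 to 84.6 ± 0.819 CPM (SD, n = 2; adjusted p = 0.0486, edgeR with Benjamini-Hochberg). A further list held 26 genes that lie in the members' loci or are possible targets elsewhere, not all of them established targets. Of these, 13 could be tested, and 1 rose (SOX4), 1 fell (OSBPL5) and 11 did not pass. The median log2 fold change was -0.12, and among all genes 11.6% were higher and 10.9% lower.

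PVT1 lies beside MYC and is often gained together with it in breast cancer. PVT1 (ENSG00000249859, chromosome 8, 127794533 to 128101253 on GRCh38, forward strand) was at 57.3 and 49.2 CPM in the EGFP-negative and 67.0 and 55.0 CPM in the EGFP-positive libraries. The second EGFP-positive library lay below the first EGFP-negative one, so the lines overlapped. The log2 fold change was 0.20 (standard error 0.098), with a 95% interval of -0.013 to 0.41 (adjusted p = 0.185, edgeR with Benjamini-Hochberg). Without the second EGFP-positive library it was 0.32 and passed (adjusted p = 1.14e-05 by edgeR), and without the first it was 0.049 (adjusted p = 0.685 by edgeR). MYC, 53.1 kb away, was at 68.7 ± 0.519 and 74.9 ± 2.91 CPM (SD, n = 2; adjusted p = 0.249, edgeR with Benjamini-Hochberg), and LINC00824 on the other side rose from 3.95 ± 0.240 to 5.40 ± 0.438 CPM (SD, n = 2; adjusted p = 0.0248, edgeR with Benjamini-Hochberg). Of 10 genes tested within 1 Mb, 3 rose, beside 11.6% among all genes, with a median log2 fold change of 0.17.

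**Figure D4:**
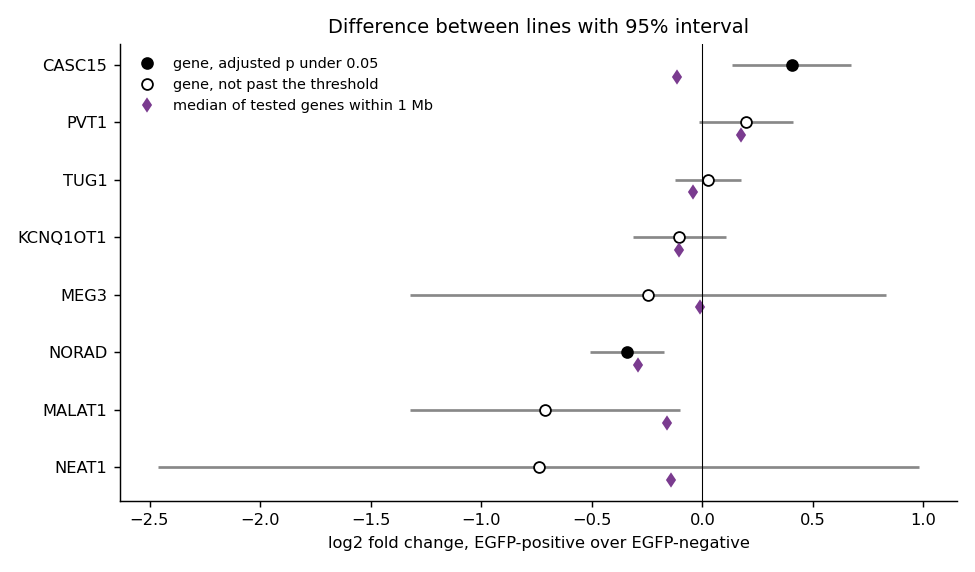
Log2 fold change of the 8 tested genes with its unadjusted 95% interval (bars), filled where the adjusted p was under 0.05, and the median log2 fold change of the tested genes within 1 Mb (diamonds; NEAT1 counts among the neighbours of MALAT1 and the reverse). The diamond lies near the gene for NORAD, PVT1 and KCNQ1OT1, and away from it for CASC15, MALAT1 and NEAT1.

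A wider list of cancer-linked noncoding RNAs, also chosen with earlier results of these data known, was compared in the same way. Of 48 genes, 46 had a row and 38 were tested, of which 9 rose, 3 fell and 26 did not pass. The median log2 fold change was 0.12. That is 23.7% higher and 7.89% lower, beside 9.1% and 7.35% among all long noncoding RNA genes tested and 14.7% and 14.8% among protein-coding genes. The list was not matched to either set in level. PCAT1 and CASC8, both among those that rose, were also counted above as neighbours of PVT1. The count by itself is thus no result about these RNAs. LUCAT1, a stress-responsive RNA that overlaps ADGRV1, rose from 13.0 ± 0.249 to 24.8 ± 0.496 CPM, and TERC, the RNA template of telomerase, which a further annotated gene overlaps almost wholly, rose from 83.6 ± 3.70 to 153 ± 11.1 CPM (SD, n = 2; adjusted p = 3.61e-08 and 3.41e-08, edgeR with Benjamini-Hochberg). JPX and FTX, neighbours on the X chromosome that share reads, rose with log2 fold changes of 0.57 and 0.47 (adjusted p = 3.42e-05 and 1.05e-04, edgeR with Benjamini-Hochberg). The 3 that fell were SAMMSON, a melanoma-linked RNA that overlaps RNPC3P1, from 8.08 ± 0.410 to 5.66 ± 0.0607 CPM, MIR22HG, a microRNA host gene that overlaps WDR81, from 33.3 ± 1.43 to 27.5 ± 1.66 CPM, and CRNDE, from 15.9 ± 0.486 to 13.2 ± 0.00527 CPM (SD, n = 2; adjusted p = 0.00328, 0.0147 and 0.0306, edgeR with Benjamini-Hochberg).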

How the data were processed

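RNA libraries were prepared from 1 ug of total RNA, per the labels' protocols. The authors deposited raw read counts per Ensembl gene ID in 1 table, used as it stands, with 1 column per library. HISAT2, Bowtie2, DESeq2 and the build hg19 are named per the submitters' processing notes, without roles. For the counting tool, annotation and strand, the answer is not given in the sources used here. Each of the 43714 IDs is in GENCODE release 29 (GRCh38), which gave names and positions. Since the table holds no coordinates, positions are those of that release.

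The test was edgeR's robust quasi-likelihood fit (edgeR 4.0.16, R 4.3.3) of all 4 libraries, with line as the only term, TMM scaling, a minimum count of 10 in filterByExpr and Benjamini-Hochberg adjustment over 30952 genes at 0.05. CPM uses TMM-scaled library sizes. The test was tried first on simulated counts whose spread followed edgeR's trend over all genes. That trial does not cover genes with a spread as large as that of MALAT1 and NEAT1. Standard errors were derived from edgeR's log2 fold changes and F statistics. The unadjusted intervals were built from them with each gene's own degrees of freedom, so their width relative to the standard error differs between genes. At 55894092 counts or more per library, counting error is small for most members. It is larger for KCNQ1OT1 (731 to 1115 counts) and CASC15 (398 to 635 counts), and largest for MEG3 and HOTAIR.

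Members and lists were chosen with earlier results of these data known. Named by rule were all members, up to 4 called genes per partner list, 4 per direction among other noncoding RNAs, overlapping genes with at least 10% of a member's counts, and the nearest tested neighbours. Genes with a like pattern were to be named for members changed at least 2-fold, and none was called at that size. SFPQ, PSPC1, PUM2, SUZ12, EED, PHLDA2, DLK1 and DIO3 were named for their roles. Some genes that these rules would name are not reported here. Alternatives were RLE and total count scaling, other count filters, DESeq2 1.42.0, limma-voom (limma 3.58.1), a block for library number, fits that leave out 1 library, and counts less those of inner genes.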

Additional observations from a re-analysis of the deposited data

How the results depend on the processing

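The limits lie in 2 libraries per line and in shared reads. Of 94 recomputed log2 fold changes of members, 70 kept their direction and side of the threshold, 14 newly passed, 6 no longer passed and 4 changed sign, all 4 for members that were not called. The sign changes were MEG3 without the second EGFP-negative library (0.81), KCNQ1OT1 without the first (0.033), and TUG1 with total count scaling (-0.059) or without the second EGFP-positive library (-0.022). Without a single library, MEG3 ranged from -0.85 to 0.81, KCNQ1OT1 from -0.23 to 0.033 and TUG1 from -0.022 to 0.069. MALAT1 ranged from -1.07 to -0.43 and NEAT1 from -1.25 to -0.37, each past the threshold in 6 of 12 alternatives: MALAT1 passed with RLE scaling (edgeR, adjusted p = 0.0484) and both with limma-voom (adjusted p = 0.00209 and 0.00551). NORAD ranged from -0.43 to -0.26 and passed in 10 of 12, CASC15 from 0.26 to 0.57 and in 8 of 12. The causes were not tested.

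Members called higher numbered 0 with total count scaling and 0 with DESeq2, and 0 to 2 without a single library. Members called lower numbered 2 with RLE scaling and 3 with limma-voom, and 1 to 3 without a single library. The number of members called was 2 higher and 3 lower with the library number as a block. Over all genes, same-numbered libraries did not deviate together (correlation of deviations -0.026), and the block was not taken as support. MALAT1, NEAT1, PVT1 and KCNQ1OT1 were nonetheless higher in library 1 than in library 2 of both lines. For MALAT1 the log2 ratio was 0.33 (EGFP-negative) and 0.66 (EGFP-positive), and for NEAT1 0.34 and 0.88. CASC15, NORAD and TUG1 went opposite ways in the lines, and the low MEG3 and HOTAIR were lower in library 1 of both. Whether same-numbered libraries share more than a number is not known. Total count scaling put the median over all genes at -0.088 (log2) and gave 2268 higher genes in all (36.0% of its calls, against 51.5%), 5 higher noncoding RNAs of the wider list and 8 lower partner and target genes. DESeq2 called 1 partner or target gene lower. The main counts were 3576 higher and 3366 lower genes, and 4 and 4 partner and target genes. Without a single library, the ranges were 2333 to 4703 higher and 2025 to 4457 lower genes, 5 to 10 higher and 0 to 6 lower noncoding RNAs of the wider list, and 2 to 8 higher and 0 to 9 lower partner and target genes. The neighbours of NORAD called lower, recomputed after the data were seen, numbered 12 to 33 over all alternatives.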
